A study of Mus musculus with 12 samples.

Results

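The comparison described here is that of 2 weeks with 1 week after lateral hemisection (HS) of the spinal cord, the milder of the lesions in the study, across all measured genes. Its members are the 5 HS libraries of 12 in all, 2 of HS 2 weeks and 3 of HS 1 week, chosen by their labels and not by any measured value. The HS 2 weeks group held cells taken 2 weeks after hemisection, and the HS 1 week group held cells taken 1 week after the same lesion. Both groups came from adult male Aldh1l1-EGFP mice (12 weeks at the lesion) on a Swiss Webster background, which carry eGFP under the Aldh1l1 promoter, a promoter active in astrocytes. Living eGFP+ cells were sorted from a spinal cord segment centered on the lesion, and each group drew on more animals than it had libraries. The other 7 libraries were of non-injured controls (NI, 3), full transection (FT) 2 weeks (3) and FT 1 week (1), all of the same transgenic line. The comparison asks how the transcripts of the sorted cells differed between these times after the milder lesion.

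Astrocytes around a spinal cord lesion thicken their processes, raise intermediate filaments such as Gfap, and over weeks form a border between injured and spared tissue. In the same period microglia and blood-derived macrophages gather at the lesion, engulf myelin and cell debris, and take on a lipid-handling, antigen-presenting state. Antigen presentation to helper T cells uses MHC class II, a surface dimer of an alpha and a beta chain (in mice H2-Aa with H2-Ab1, and H2-Eb1 with its own partner) that is guided through the cell by the invariant chain Cd74. Neutrophils, which carry granule proteins such as Ngp, Camp and Ltf, are early arrivals and short-lived.

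The MHC class II alpha and beta chain genes had some of the largest differences of this comparison, and 2 of their promoters are shown because these genes had the same lowest and the same highest HS library. This was not particular to class II genes, as Apoc1 and Lyz1 had the same lowest and highest library. The windows run from 250 bases before to 50 bases after the start of the gene, in the direction of transcription, and are credited to RefSeq in the GRCm38.p6 build. Capitals mark the letters CTGATTGG, the Y box of MHC class II promoters, an inverted CCAAT element.
H2-Aa promoter, chr17:34287774-34288073, minus strand: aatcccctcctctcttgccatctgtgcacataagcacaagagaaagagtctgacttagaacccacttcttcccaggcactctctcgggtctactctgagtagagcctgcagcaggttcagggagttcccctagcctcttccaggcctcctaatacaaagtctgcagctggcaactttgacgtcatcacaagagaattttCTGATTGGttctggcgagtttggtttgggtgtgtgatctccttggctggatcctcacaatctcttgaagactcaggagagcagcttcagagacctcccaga
H2-Eb1 promoter, chr17:34305617-34305916, plus strand: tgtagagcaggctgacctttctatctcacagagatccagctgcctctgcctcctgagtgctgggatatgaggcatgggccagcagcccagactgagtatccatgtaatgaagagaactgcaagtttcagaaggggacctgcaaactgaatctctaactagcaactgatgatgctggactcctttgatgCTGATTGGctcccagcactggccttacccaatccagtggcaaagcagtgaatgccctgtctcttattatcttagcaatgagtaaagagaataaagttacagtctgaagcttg
The first letter of the element lay at base -51 from the start in H2-Aa and at base -62 in H2-Eb1. These 8 letters were searched on both strands and were present in 4.10% of the 32851 promoter windows of the same length. Of the 7 MHC class II genes listed, 4 had a promoter window, and those of H2-DMa and H2-DMb1 did not hold these letters. A match of letters is a description and not a measured binding site.

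The deposited values are normalized counts, that is reads per gene scaled by 1 factor per library, and the 16388 of 16389 genes that reached a mean of 0.5 in some group were tested. A gene was called differentially expressed (DE) where the Benjamini-Hochberg adjusted p was under 0.05 in limma-trend on log2(normalized count + 1) and the difference was at least 2-fold. The libraries held 13343507 to 14942057 reads in HS 2 weeks and 8818561 to 15562378 in HS 1 week. The label of the cells was checked against marker genes. Oligodendrocyte transcripts exceeded astrocyte transcripts in every HS library, with a summed level of 12 oligodendrocyte markers of 74174 and 82939 normalized counts in HS 2 weeks and 114609, 102678 and 67311 in HS 1 week. The sum of 20 astrocyte markers was 3335 and 8882 in HS 2 weeks and 10205, 16530 and 2728 in HS 1 week. Levels summed over genes are normalized counts that are not divided by transcript length.

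HS 2 weeks replicate 1 and HS 1 week replicate 3 stood apart from the other 3 HS libraries by their markers of microglia and macrophages. The sum of 17 such markers was 11172 and 1888 normalized counts in HS 2 weeks and 3295, 970 and 12191 in HS 1 week. Across genes, log2 levels of libraries from different times were in part more alike than those of the same time. Pearson's r was 0.952 between the HS 2 weeks libraries and 0.896 to 0.964 between the HS 1 week libraries. Between times it was 0.984 for HS 2 weeks replicate 2 with HS 1 week replicate 1, and 0.970 for HS 2 weeks replicate 1 with HS 1 week replicate 3. These values describe levels across genes, which are not independent replicates. In bulk libraries, fewer cells of a type and less RNA per cell cannot be told apart.

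**Figure D1:**
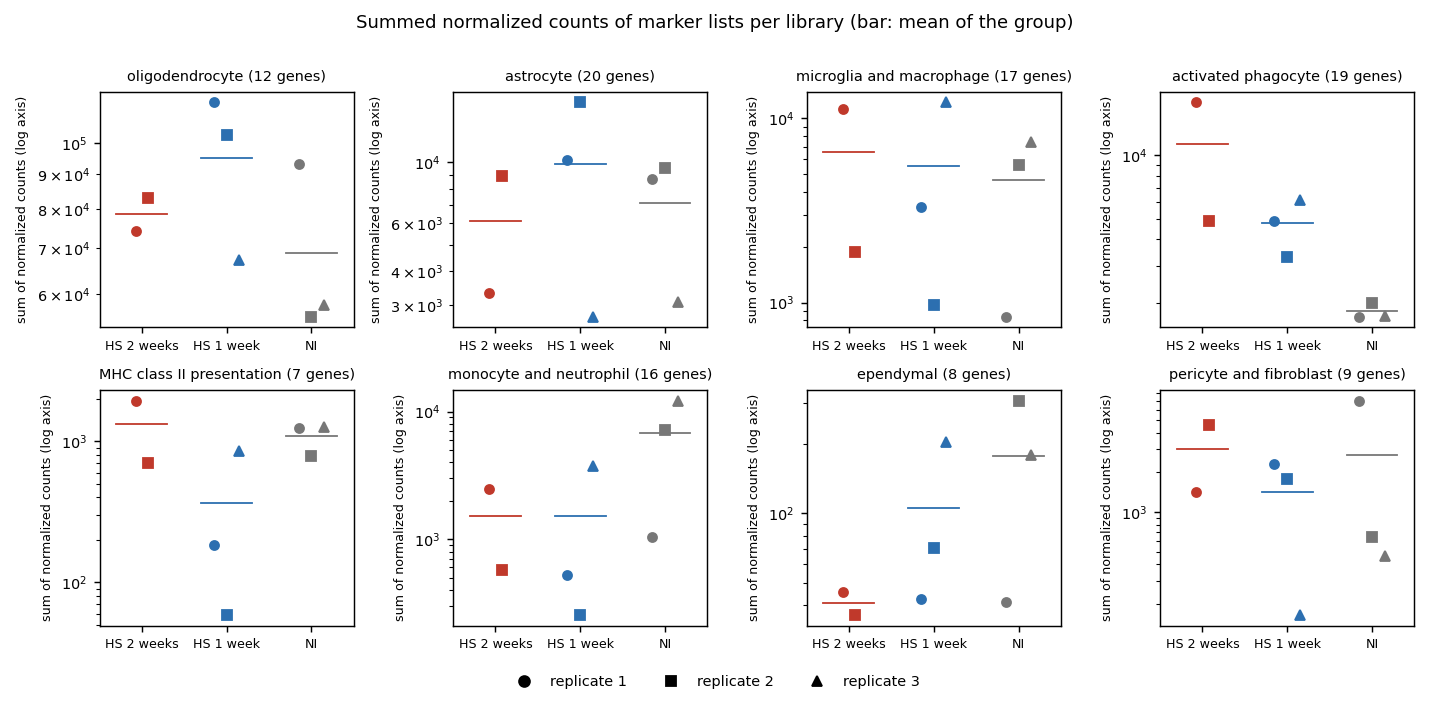
Summed normalized counts (log axis) of 8 marker lists in each library of HS 2 weeks (2), HS 1 week (3) and NI (3), with the bar at the group mean and symbols for the replicate. The microglia and macrophage sums of HS 2 weeks replicate 1 (11172) and HS 1 week replicate 3 (12191) were the highest of the 5 HS libraries, and the MHC class II sums of HS 2 weeks (1941 and 707) lay within or above those of HS 1 week (185, 58.9 and 856).

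No gene passed the test between HS 2 weeks and HS 1 week. Of the 16388 genes, 0.00% were called by limma-trend, and 0 by edgeR's quasi-likelihood test, 0 by its likelihood ratio test and 0 by DESeq2. The smallest adjusted p was 0.9996 in limma-trend. In edgeR's likelihood ratio test the smallest FDR was 0.0608, that of Apoc1, and in DESeq2 the smallest adjusted p was 0.154. Without adjustment, limma-trend gave p under 0.05 to 134 genes higher in HS 2 weeks (0.818%) and to 132 genes lower (0.805%). These are 266 genes in all, against 297 in the quasi-likelihood test, 352 in the likelihood ratio test and 342 in DESeq2. Both HS 2 weeks libraries lay above all 3 HS 1 week libraries in 944 genes (5.76%) and below all 3 in 1101 genes (6.72%).

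The median log2 difference over all genes was 0.01, with an interquartile range of -0.17 to 0.19. A difference of at least 2-fold was reached by 164 genes higher and 125 genes lower in HS 2 weeks, and the extremes were 2.66 and -2.62. The median standard error was 0.31 and the median half-width of the unadjusted 95% confidence interval 0.68. This width is not the limit of detection after adjustment, where even the largest difference, 2.66, was not called. A gene that was not called may therefore differ by more than this width. Since no adjusted p between the HS times was under 0.9996 in limma-trend, p-values between them are given below without adjustment. No source says which animals went into which library, and p-values measure only the spread between these libraries.

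**Figure D2:**
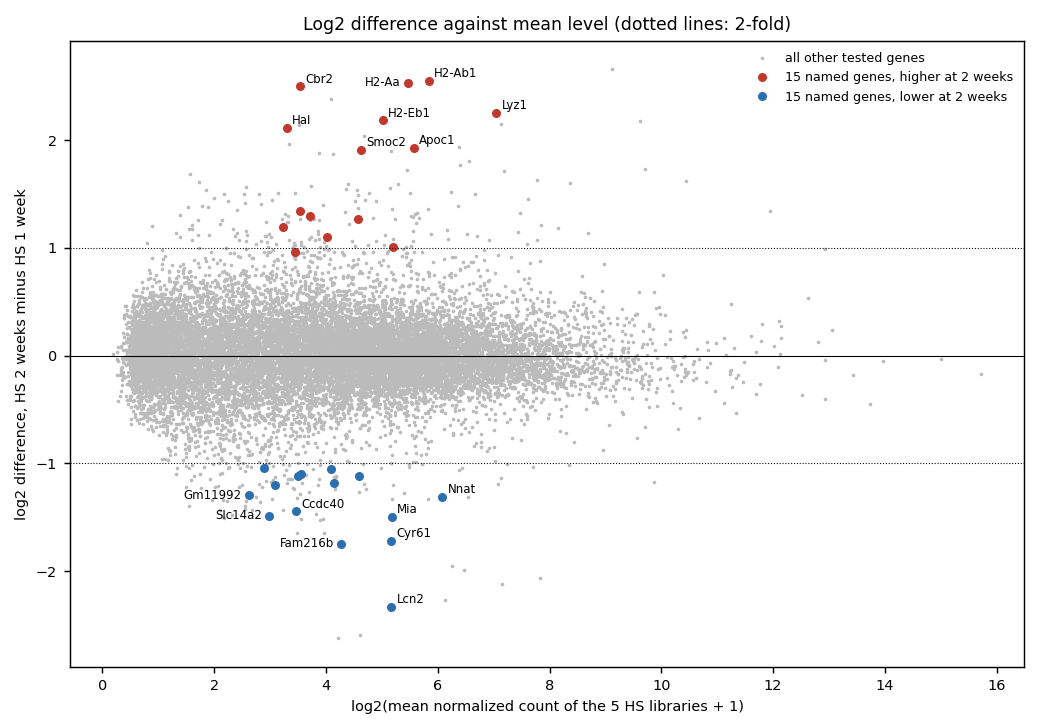
Log2 difference of HS 2 weeks minus HS 1 week for the 16388 tested genes against log2 of the mean normalized count of the 5 HS libraries plus 1, with dotted lines at 2-fold. The 15 named genes of each direction are marked, and the extremes among all genes are Cd74 (2.66) and Retnlg (-2.62).

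MHC class II genes had the highest median of the 37 gene lists. The median log2 difference of the 7 members was 2.18, beside 0.01 over all genes, all 7 were above 0, 4 of 7 had p under 0.05 (0.818% of all genes were so and higher) and 3 of 7 did not overlap between the times (5.76% of all genes were above). H2-Aa (chr17:34282744-34287823, GRCm38), the alpha chain, had 100 and 58.4 normalized counts in HS 2 weeks, against 10.8, 3.64 and 43.0 in HS 1 week. Both HS 2 weeks libraries were higher than the microglia-rich HS 1 week replicate 3, and far higher than the other HS 1 week libraries. The log2 difference of H2-Aa was 2.53 ± 0.80 (SE), with a 95% interval of 0.77 to 4.29 (limma-trend, unadjusted p = 0.00908).

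H2-Ab1 (chr17:34257689-34269419), the beta chain that pairs with H2-Aa, had 121 and 74.9 normalized counts in HS 2 weeks, against 12.9, 3.64 and 68.1 in HS 1 week. H2-Eb1 (chr17:34305867-34316674), the beta chain of the other class II dimer, had 58.9 and 49.0, against 8.49, 3.90 and 36.6. Each of these genes had its lowest level in HS 1 week replicate 2 and its highest in HS 2 weeks replicate 1. Log2 differences were 2.55 ± 0.89 for H2-Ab1 (limma-trend, unadjusted p = 0.0155) and 2.18 ± 0.77 for H2-Eb1 (unadjusted p = 0.0168).

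Cd74 had 1543 and 482 normalized counts in HS 2 weeks, against 125, 33.6 and 586 in HS 1 week, and the groups overlapped, as HS 1 week replicate 3 lay above HS 2 weeks replicate 2. Its log2 difference was 2.66 ± 0.94, the highest of all tested genes (limma-trend, unadjusted p = 0.0166). H2-DMa and H2-DMb1, whose products load peptides onto class II, had log2 differences of 0.96 and 0.94, and Ciita, the class II transactivator, had 0.40, all with overlapping groups. Ciita stood at 4.91 and 3.66 normalized counts in HS 2 weeks, against 4.49, 1.47 and 3.61.

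The levels of these genes in NI libraries were near those of HS 2 weeks. H2-Aa had 123, 56.9 and 107 normalized counts in NI, and Cd74 had 785, 518 and 839. The low values were therefore those of HS 1 week replicates 1 and 2. The sum of the 7 genes was 1941 and 707 in HS 2 weeks, 185, 58.9 and 856 in HS 1 week and 1241, 784 and 1271 in NI. Between the HS times it differed by 2.47 on the log2 scale (exact permutation test over the 10 splits of 5 libraries, two-sided p = 0.4, where the smallest p possible is 0.2).

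Markers of microglia and macrophages ranked the libraries in another order, as HS 2 weeks replicate 2 lay below HS 1 week replicate 1 in their sum (1888 against 3295) and above it in the class II sum (707 against 185). Of these 17 markers, 16 were above 0, as all class II genes were, and 0 had p under 0.05. Their median log2 difference was 0.57, but -0.69 without HS 2 weeks replicate 1, -0.45 without HS 1 week replicate 2 and -0.07 between the microglia-rich libraries alone. The ratio of the class II sum to the microglia and macrophage sum of the same library, formed after the values were seen, was 17.4% and 37.5% in HS 2 weeks, against 5.62%, 6.07% and 7.02% in HS 1 week, and did not overlap. In NI this ratio was 148%, 14.1% and 17.2%. The same ratio for activated phagocyte genes was 159% and 259% in HS 2 weeks, against 148%, 339% and 50.5% in HS 1 week, and overlapped. That for monocyte and neutrophil genes was 22.2% and 30.6%, against 16.0%, 26.3% and 30.7%, and also overlapped. Set against each other alone, the microglia-rich libraries HS 2 weeks replicate 1 and HS 1 week replicate 3 gave a class II list median of 0.67, and the other libraries gave 2.87. With the microglia and macrophage sum as a covariate the class II list median was 2.06, and 0 genes were called. The cause of the class II difference was not tested.

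**Figure D3:**
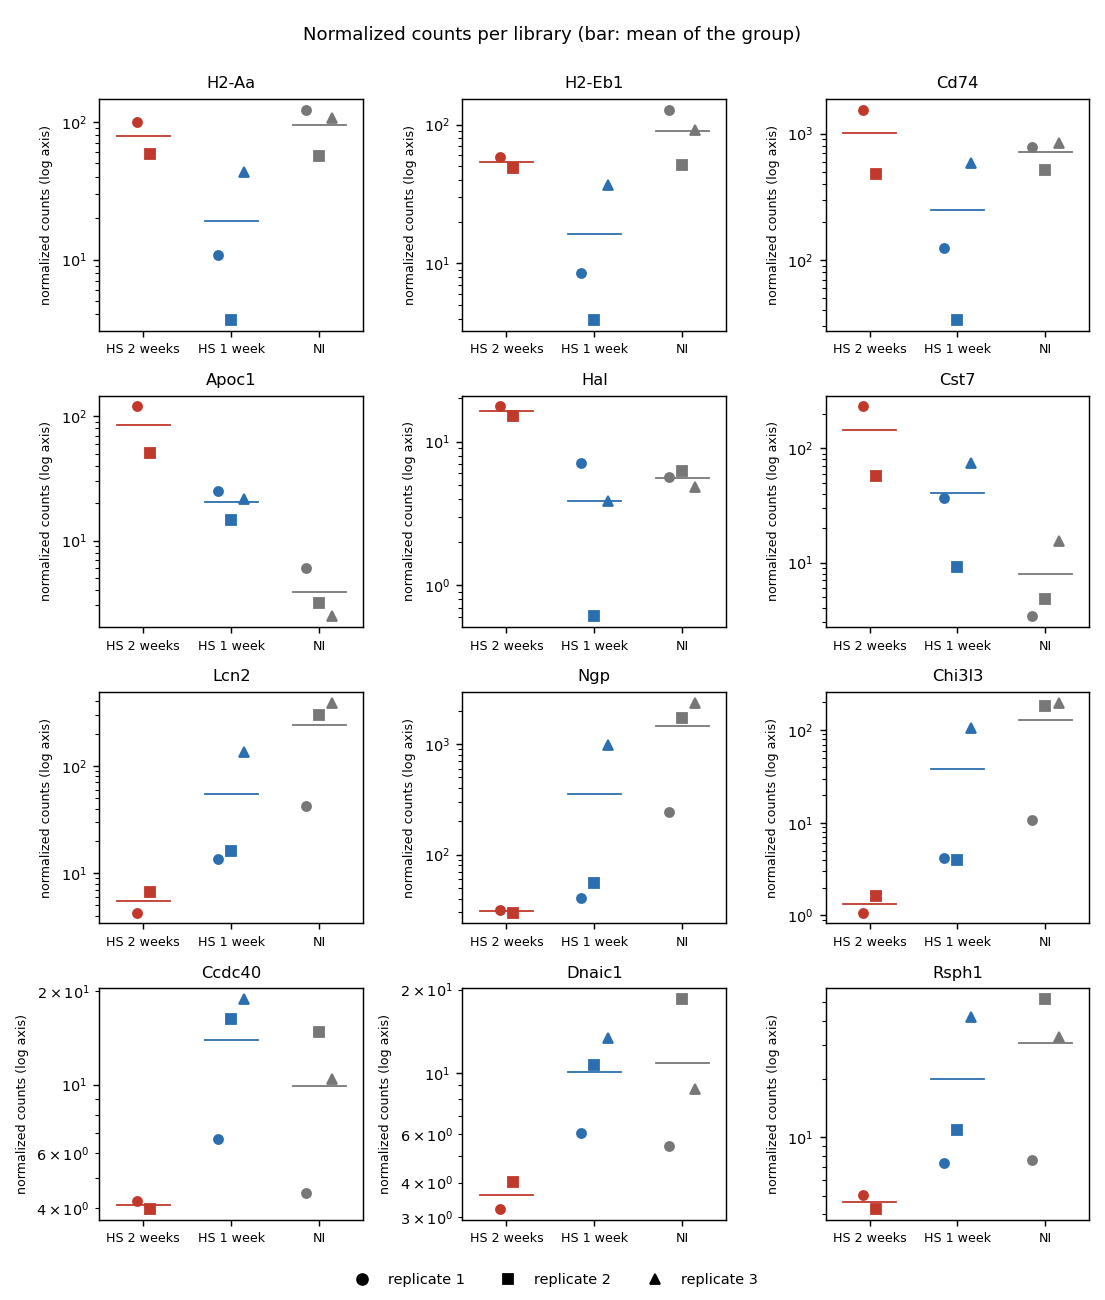
Normalized counts (log axis) of 12 genes in each library of HS 2 weeks (2), HS 1 week (3) and NI (3), with the bar at the group mean. H2-Aa (100 and 58.4), H2-Eb1 (58.9 and 49.0), Apoc1 (121 and 51.0) and Hal (17.6 and 15.02) were higher in both HS 2 weeks libraries than in any HS 1 week library, while Lcn2 (4.27 and 6.74) and Ccdc40 (4.20 and 3.96) were lower, and HS 1 week replicate 3 was the highest HS library for Lcn2, Ngp and Chi3l3.

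Most genes of activated phagocytes had a positive difference. Of 19 members, 17 were above 0, 5 had p under 0.05 (0.818% of all genes), 2 did not overlap (5.76%), and the median log2 difference was 1.52. Without HS 2 weeks replicate 1 the median was 0.40 and 1 of 19 had p under 0.05. Apoc1 (chr7:19689481-19692660), an apolipoprotein of lipid-laden macrophages, had 121 and 51.0 normalized counts in HS 2 weeks, against 24.97, 14.6 and 21.6 in HS 1 week. In NI it had 5.97, 3.13 and 2.45, so that all 5 HS libraries lay above all 3 NI libraries and HS 2 weeks above HS 1 week. Its log2 difference between the HS times was 1.93 ± 0.42, with a 95% interval of 1.01 to 2.84 (limma-trend, unadjusted p = 0.000768).

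Cst7, a cystatin of activated microglia, had 235 and 57.7 normalized counts in HS 2 weeks, against 36.9, 9.11 and 74.995 in HS 1 week. Lpl, lipoprotein lipase, had 397 and 90.8, against 71.2, 18.4 and 141. Both genes were highest in HS 2 weeks replicate 1, the microglia-rich library, and both overlapped. Their log2 differences were 1.93 and 1.71.

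Mrc1, the mannose receptor, had 35.6 and 40.4 normalized counts in HS 2 weeks, against 39.6, 2.08 and 5.81 in HS 1 week. Ms4a7, a macrophage gene, had 29.2 and 14.4, against 20.2, 1.47 and 2.81. In these genes HS 1 week replicate 1 lay within the range of the HS 2 weeks libraries and the microglia-rich HS 1 week replicate 3 did not. The log2 differences were 2.04 for Mrc1 and 1.88 for Ms4a7. The phagocyte sum was 17738 and 4884 in HS 2 weeks and 4892, 3286 and 6158 in HS 1 week, a log2 difference of 1.01 (exact permutation test, two-sided p = 0.6).

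Further genes of the myeloid lineage stood among the 15 named genes of the higher side, which are the largest differences only of genes with p under 0.05, no overlap and a mean of at least 5 over the HS libraries. Cbr2, carbonyl reductase 2, had 18.4 and 22.9 normalized counts in HS 2 weeks, against 8.85, 0.867 and 2.02 in HS 1 week, a log2 difference of 2.499 ± 0.74. Lyz1, a lysozyme of phagocytes, had 396 and 89.4, against 76.3, 8.41 and 85.1, a log2 difference of 2.25 ± 0.95. Lyz1 and its neighbour Lyz2 are near-identical copies, and reads may have been divided between them. Lyz2 overlapped between the times and had a log2 difference of 2.18.

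Wfdc17, a gene of activated macrophages, had a log2 difference of 1.34, with 17.4 and 14.9 normalized counts in HS 2 weeks and 9.58, 1.73 and 9.66 in HS 1 week. Colec12, a scavenger receptor of the collectin family, had 1.10. Mmp12, the macrophage elastase, had 36.9 and 5.35, against 2.91, 0.434 and 6.79, and overlapped. Its log2 difference of 2.14 rested on HS 2 weeks replicate 1, where 518 reads were counted, against 73 in replicate 2.

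Hal (chr10:93488768-93519304), histidine ammonia-lyase, had 17.6 and 15.02 normalized counts in HS 2 weeks, against 7.15, 0.607 and 3.85 in HS 1 week. The HS 2 weeks libraries were close to each other, while those of HS 1 week ranged from 0.607 to 7.15. The log2 difference was 2.11 ± 0.58, with a 95% interval of 0.84 to 3.39 (limma-trend, unadjusted p = 0.00388). NI libraries had 5.66, 6.26 and 4.82, within the range of HS 1 week.

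Several other genes of the higher side are known from vessel walls, fibroblasts and Schwann cells. Crip1, a LIM-domain protein, had 49.5 and 52.7 normalized counts in HS 2 weeks, against 19.9, 30.6 and 25.4 in HS 1 week, with a log2 difference of 1.01 ± 0.28 (limma-trend, unadjusted p = 0.00401). Ngfr, the p75 neurotrophin receptor, a gene of immature and denervated Schwann cells, had 35.2 and 35.4, against 20.0, 13.3 and 10.4, with a log2 difference of 1.27 ± 0.46. In both genes the HS 2 weeks libraries were nearly equal, and by the rule of choice they lay above all HS 1 week libraries. Of 10 Schwann cell genes, 8 were above 0 with a median of 0.27, and -0.01 without HS 2 weeks replicate 2. Ngfr was the 1 of 10 with p under 0.05 (0.818% of all genes were so and higher), and 2 of 10 lay above all HS 1 week libraries (5.76%). The sum of the list was 898 and 958 in HS 2 weeks, against 1095, 1169 and 636 in HS 1 week, and overlapped.

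Smoc2, a matricellular protein, had 27.7 and 56.9 normalized counts in HS 2 weeks, against 18.7, 11.5 and 4.22 in HS 1 week, a log2 difference of 1.91 ± 0.76. Plxdc1 (1.30), a plexin domain protein of vessels, Kcnk2 (1.19), a potassium channel, and Plxnd1 (0.96), a semaphorin receptor, complete the 15 named genes on the higher side. Of 9 pericyte and fibroblast genes, 8 were above 0 with a median of 1.32, and 0 lay above all HS 1 week libraries (5.76% of all genes did). Higher with p under 0.05 was 1 of the 9 (0.818% of all genes). That gene, Postn (periostin), had 54.8 and 8.20, against 6.79, 1.65 and 10.5, and overlapped. Col3a1, a fibrillar collagen, had 75.9 and 198, against 87.3, 44.8 and 10.8. The sum of the 9 genes was 1421 and 4622 in HS 2 weeks and 2310, 1797 and 165 in HS 1 week, and was lowest in the microglia-rich library of each time.

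Among the genes lower in HS 2 weeks, granule proteins of neutrophils had the largest differences. Of 16 monocyte and neutrophil genes, 15 were below 0 with a median of -1.48, 0 had p under 0.05 in limma-trend (0.805% of all genes), and 6 lay below all HS 1 week libraries (6.72%). Without HS 1 week replicate 3 the median was -0.27. The count depended on the test. At unadjusted p under 0.05, edgeR's likelihood ratio test and DESeq2 each had 9 of 16 lower and 1 higher. Over all 16388 genes these tests had 352 and 342 in either direction. The quasi-likelihood test had 7 of 16 lower. Lcn2 (chr2:32384633-32388252), lipocalin 2, which neutrophils and reactive astrocytes both make, had 4.27 and 6.74 normalized counts in HS 2 weeks, against 13.5, 16.0 and 134 in HS 1 week. The log2 difference was -2.33 ± 1.03, with a 95% interval of -4.61 to -0.05 (limma-trend, unadjusted p = 0.0456). HS 1 week replicate 3 held the highest value by far, and NI libraries had 42.5, 297 and 389, mostly above it.

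Ngp, neutrophilic granule protein, had 31.4 and 29.7 normalized counts in HS 2 weeks, against 40.7, 55.6 and 973 in HS 1 week. Chi3l3, a chitinase-like protein of myeloid cells, had 1.07 and 1.61, against 4.12, 3.99 and 106. Both HS 2 weeks libraries lay below every HS 1 week library in these genes, and the size of the difference came from HS 1 week replicate 3. Log2 differences were -2.07 for Ngp and -2.59 for Chi3l3. In NI, Ngp had 244, 1729 and 2380 and Chi3l3 had 10.7, 181 and 199.

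The calprotectin genes S100a8 and S100a9 and the granule genes Ltf, Camp and Retnlg shared this pattern, with log2 differences of -2.12, -1.95, -1.99, -2.26 and -2.62. Retnlg rested on 1 and 55 reads in HS 2 weeks, against 52, 51 and 1186 in HS 1 week. Camp overlapped, with 9.96 in HS 2 weeks replicate 1 above 9.21 in HS 1 week replicate 1. The summed level of the list, of which Lyz2 alone gave 2342 and 470 in HS 2 weeks and 392.1, 47.9 and 651 in HS 1 week, was 2484 and 577 in HS 2 weeks and 526, 255 and 3738 in HS 1 week, a log2 difference of 0.59, opposite in sign to the median.

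Among the named genes of the lower side were some of motile cilia, which ependymal cells carry into the central canal. Ccdc40 (chr11:119228572-119265238), needed to assemble the ciliary axoneme, had 4.20 and 3.96 normalized counts in HS 2 weeks, against 6.67, 16.3 and 18.9 in HS 1 week. Dnaic1, a dynein intermediate chain, had 3.20 and 4.03, against 6.06, 10.7 and 13.4. In both genes the HS 2 weeks libraries were the lowest of the 5, as the rule for the named genes required. Log2 differences were -1.45 ± 0.49 for Ccdc40 (limma-trend, unadjusted p = 0.0140) and -1.20 ± 0.45 for Dnaic1 (unadjusted p = 0.0215).

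In the list of ependymal markers, 8 of 8 tested genes were below 0 with a median of -0.93. In limma-trend 0 had p under 0.05 (0.805% of all genes). At the same p, edgeR's likelihood ratio test and DESeq2 each had 4 of 8 lower, and the quasi-likelihood test had 1. Between the times 3 of 8 did not overlap (6.72%). Without HS 1 week replicate 3 the median was -0.31. The 3 genes were Rsph1, a radial spoke head protein, Tekt1, a tektin of ciliary microtubules, and the cilium gene 1700009P17Rik. Rsph1 had 5.05 and 4.25 normalized counts in HS 2 weeks, against 7.40, 10.9 and 42.0 in HS 1 week. Log2 differences were -1.53 for Rsph1, -1.15 for Tekt1 and -1.28 for 1700009P17Rik. The sum of the 8 genes was 45.7 and 36.3 in HS 2 weeks and 42.3, 70.6 and 204 in HS 1 week, and differed by -1.04 on the log2 scale (exact permutation test, two-sided p = 0.4). HS 1 week replicate 3 was again the highest HS library. In NI, Rsph1 had 7.62, 52.0 and 33.2, and NI replicates 2 and 3 were the highest of that group in both the cilium and the neutrophil genes.

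The other genes of the 15 on the lower side, chosen to be lower in both HS 2 weeks libraries, were mostly highest in HS 1 week replicate 3. Fam216b had 7.76 and 4.03 normalized counts in HS 2 weeks, against 12.4, 14.1 and 53.6 in HS 1 week, a log2 difference of -1.74. Cyr61, a matricellular protein of the CCN family, had 10.03 and 9.45, against 13.8, 24.4 and 116, a log2 difference of -1.72. Mia (-1.50), a secreted protein of cartilage and melanoma, Slc14a2 (-1.49), a urea transporter, and Gm11992 (-1.29) had their highest HS level in the same library.

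Nnat, neuronatin, an imprinted gene of the developing brain, had 32.4 and 33.7 normalized counts in HS 2 weeks, against 54.4, 80.3 and 133 in HS 1 week, and a log2 difference of -1.31 ± 0.48. Fam5c, also known as Brinp3, had 6.33 and 12.2, against 17.2, 23.9 and 23.5, and a log2 difference of -1.18 ± 0.33 (limma-trend, unadjusted p = 0.00440). Tspan12, a tetraspanin of the Norrin receptor complex, had 8.75 and 18.6, against 25.2, 35.4 and 27.0, and a log2 difference of -1.11 ± 0.35 (limma-trend, unadjusted p = 0.00843). In Fam5c and Tspan12 HS 1 week replicate 3 did not stand out. Tom1l1 (-1.12), Nell2 (-1.10), Syt4 (-1.06) and Clca1 (-1.05) complete the named genes of this side, and Clca1 was highest in HS 1 week replicate 1, with 11.2.

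**Figure D4:**
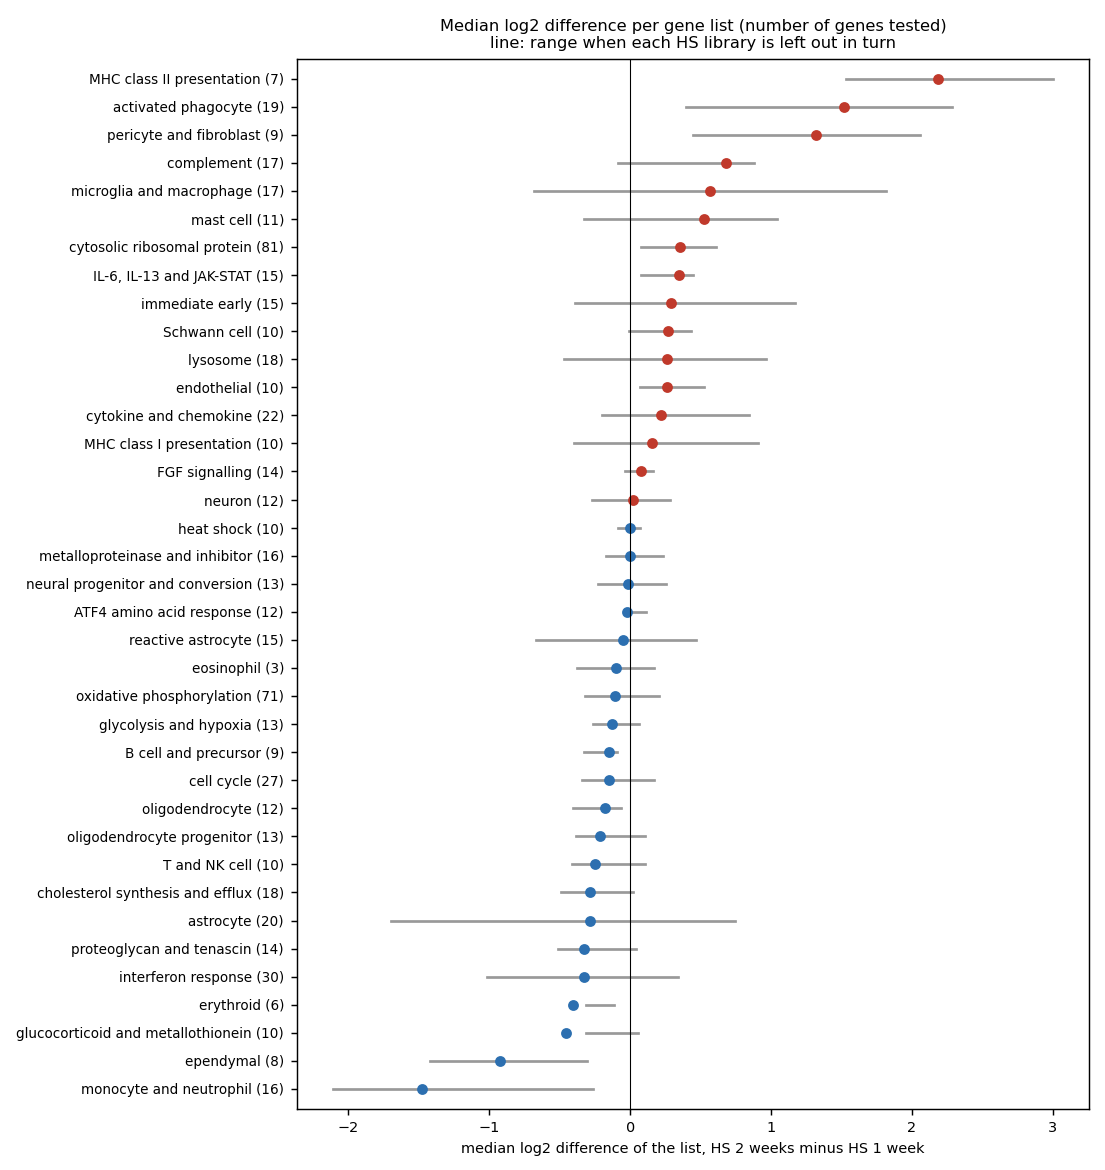
Median log2 difference of HS 2 weeks minus HS 1 week for the 37 gene lists, with the number of tested genes, and as a line the range when each of the 5 HS libraries is left out in turn. MHC class II presentation (2.18), activated phagocyte (1.52) and pericyte and fibroblast (1.32) lie at the top, and monocyte and neutrophil (-1.48) and ependymal (-0.93) at the bottom, while most other lists lie near 0 and their lines cross it.

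The times were not separated by astrocyte genes with all 5 libraries in the comparison. Of 20 astrocyte markers, 0 had p under 0.05 and 0 lay above or below all libraries of the other time, and 17 were below 0 with a median of -0.29. This median was -1.69 without HS 1 week replicate 3, where 3 markers had p under 0.05, -1.59 without HS 2 weeks replicate 2, and 0.74 without HS 2 weeks replicate 1. Aldh1l1, whose promoter drove the sorted label, had 35.4 and 80.4 normalized counts in HS 2 weeks, against 73.0, 127 and 13.8 in HS 1 week. Gfap, the intermediate filament of astrocytes, had 132 and 1055, against 1631, 1239 and 101. Both genes were lowest in the microglia-rich library of each time. The log2 difference of Gfap was -0.66 (limma-trend, unadjusted p = 0.581).

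Of 15 genes of reactive astrocytes, 2 had p under 0.05 and were lower in HS 2 weeks (0.805% of all genes), Lcn2, described above, and Vim. Vim, the filament vimentin, had 110 and 128 normalized counts in HS 2 weeks, against 167, 217 and 157 in HS 1 week. The log2 difference of Vim was -0.59 ± 0.22, with a 95% interval of -1.07 to -0.11 (limma-trend, unadjusted p = 0.0211), and NI libraries had 136, 148 and 143. Serpina3n, a protease inhibitor of reactive astrocytes, had 780 and 1314, against 1457, 1938 and 408, and a log2 difference of -0.05. The median of the list was -0.05.

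The 14 proteoglycan and tenascin genes, matrix genes of astrocytes and progenitors, had a median of -0.32, and 1 of 14 lay below all HS 1 week libraries, which is near the 6.72% of all genes. Ncan, neurocan, had 27.1 and 75.9 normalized counts in HS 2 weeks, against 99.7, 151 and 58.8 in HS 1 week, and a log2 difference of -1.06. Timp4, a metalloproteinase inhibitor, had 21.3 and 77.9, against 74.9, 217 and 67.2, and a log2 difference of -1.31 (limma-trend, unadjusted p = 0.0515). Both were lowest in HS 2 weeks replicate 1 and overlapped.

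The study names 22 genes, of which 21 were measured, and 1 of them, C4a, had p under 0.05. C4a, a complement C4 paralog, had 9.46 and 11.9 normalized counts in HS 2 weeks, against 7.03, 4.77 and 5.26 in HS 1 week, with a log2 difference of 0.81 ± 0.33 (limma-trend, unadjusted p = 0.0340). C4b, complement C4, had 1355 and 1321, against 1323, 595 and 645, with a log2 difference of 0.74, and overlapped in HS 1 week replicate 1. C4a and C4b are near-identical copies whose reads the counting could have divided. In NI, C4b had 62.5, 31.0 and 27.3, below every HS library. Of the 17 complement genes, 14 were above 0, 3 lay above all HS 1 week libraries (C2, C3 and C4a, where 5.76% of all genes did), and Cd55, a complement regulator, lay below all of them (6.72% of all genes did) with 13.3 and 14.1, against 21.3, 24.5 and 14.6.

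No difference between the times was detected in transcripts of genes linked to conversion toward neurons. The study's evidence for conversion also included protein staining of cells, set against non-injured cords, which a comparison of bulk RNA between injured times does not address. Tubb3, a neuronal tubulin, had 128 and 158 normalized counts in HS 2 weeks, against 177, 205 and 82.2 in HS 1 week, and a log2 difference of -0.02. Dcx, doublecortin of migrating neuroblasts, had 3.91 and 3.88, against 3.03, 5.55 and 6.24, and a log2 difference of -0.23. Fgfr4, a fibroblast growth factor receptor, had 6.69 and 13.5, against 11.8, 14.5 and 7.59, and a log2 difference of -0.18. Each of these genes overlapped between the times, and 0 of 13 genes of the list had p under 0.05, against 2 of 13, both lower, without HS 2 weeks replicate 2. Mmp8, the neutrophil collagenase, was also among the named genes of the study, with 2.63 and 1.90, against 2.67, 1.30 and 22.6.

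Several interferon-response genes were lowest in HS 2 weeks replicate 2. Ifit3, induced by type I interferon, had 34.2 and 10.8 normalized counts in HS 2 weeks, against 35.0, 88.9 and 36.5 in HS 1 week. Ifit1 had 32.6 and 9.74, against 42.8, 65.5 and 27.8. Rtp4, another interferon-induced gene, had 37.6 and 14.8, against 38.2, 45.4 and 36.2. HS 2 weeks replicate 2 was thus the lowest HS library in each, while replicate 1 lay near HS 1 week.

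Of the 30 genes of this list, 24 were below 0 with a median of -0.33, and 1 had p under 0.05 (0.805% of all genes). That gene, Irgm1, an interferon-induced GTPase, had 51.7 and 18.7, against 46.9, 55.6 and 59.6, with a log2 difference of -0.77 ± 0.34 (limma-trend, unadjusted p = 0.0488), and overlapped. Without HS 2 weeks replicate 2 the median of the list was 0.34.

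Ribosomal protein genes had small differences. Of 81 such genes, 74 had a positive log2 difference, the median was 0.35, and 0.07 without HS 2 weeks replicate 1, 0 had p under 0.05, and 16 lay above all HS 1 week libraries (5.76% of all genes). Their sum was 32801 and 21967 normalized counts in HS 2 weeks and 19847, 20690 and 23113 in HS 1 week, and overlapped. Of 71 genes of oxidative phosphorylation, 17 were above 0, with a median of -0.11.

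The remaining lists had few members past p of 0.05. In the list of the ATF4 response to amino acid shortage, the median was -0.02 with 6 of 12 below 0. Below all HS 1 week libraries lay 1 of 12 genes (6.72% of all genes did), and 3 of 12 lay above them (5.76%). Among these 3 were Ddit3, a stress-induced transcription factor, and Trib3, a pseudokinase it induces. Ddit3 had 94.99 and 95.97 normalized counts in HS 2 weeks, against 81.3, 55.4 and 74.4 in HS 1 week, a log2 difference of 0.45. Tek, the angiopoietin receptor of endothelium, had 5.55 and 5.64, against 4.12, 2.26 and 3.24, a log2 difference of 0.67. Cell cycle genes had a median of -0.15 with 0 of 27 at p under 0.05, oligodendrocyte genes -0.18 with 0 of 12, and neuronal genes 0.02 with 0 of 12. Across the 37 lists, 0 of 608 members were called.

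The smallest p-values of all were those of a pair of genes of low level, named after their values were seen. 4933407L21Rik had 0.356 and 0.586 normalized counts in HS 2 weeks, against 2.67, 2.60 and 3.36 in HS 1 week, from 5 and 8 reads against 22, 30 and 55. Its log2 difference was -1.40 ± 0.25 on the scale with 1 added, which understates the difference of low genes (limma-trend, unadjusted p = 0.000193). Sst, the neuropeptide somatostatin, had 3.84 and 4.18, against 0.242, 0.694 and 0.795, from 54 and 57 reads against 2, 8 and 13, with a log2 difference of 1.68 ± 0.35 (limma-trend, unadjusted p = 0.000568). The groups were well separated in both genes, and the FDR of each in edgeR's likelihood ratio test was 0.168.

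The time course after FT was set beside that after HS, but FT 1 week is 1 library, assumed to vary like the others, so that its time and its library cannot be told apart. FT 2 weeks against FT 1 week gave 63 DE genes (0.384% of genes tested in limma-trend), 17 higher and 46 lower. The test of the difference between the courses, the interaction of time and severity, gave 14 genes (0.0854%). H2-Aa had 16.1, 16.0 and 47.7 normalized counts in FT 2 weeks, against 547 in FT 1 week. Its log2 difference was -4.50 after FT, against 2.53 after HS, and the difference between them was 7.04 (limma-trend, adjusted p = 0.0873).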

How the data were processed

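PolyA RNA of sorted eGFP+ cells was amplified (SMARTer) and sequenced from Nextera libraries, which do not keep strand, so sense and antisense reads of overlapping genes cannot be told apart. Per the labels, TopHat2 2.0.9 (builds mm10 and GRCm38), HTSeq 0.5.4p3 and edgeR 3.3.6 made the table. Its signal values were deposited as normalized counts, which are whole reads that the authors multiplied by 1 factor per library. Dividing by this factor gave whole reads for 100% of values (tolerance 1e-06), 8270643 to 15562378 per library. The read depth limits low genes, since 1 read was worth 0.0612 to 0.121 normalized counts in HS libraries.

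Log2(value + 1) was tested with limma 3.58.1 (limma-trend, R 4.3.3) in 1 model of all 12 libraries with 5 group terms, with prior degrees of freedom of 3.69 and residual degrees of freedom of 7, after a filter at a mean of 0.5 in at least 1 group. The model shares 1 estimate of the spread among the groups. p-values were adjusted over all tested genes (Benjamini and Hochberg), and DE genes had an adjusted p under 0.05 and at least 2-fold difference. Sums of lists were compared by exact permutation of the 5 HS libraries. The members, the 37 gene lists and the rules were chosen with earlier results of these data known.

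Named genes were up to 15 per direction with the largest log2 difference among genes with unadjusted p under 0.05, no overlap between the times and a mean of at least 5 over the 5 HS libraries, up to 4 members of each list with the smallest p, and the genes the study names. The text leaves out some genes that meet it, and at least 1 is not reported here. Symbols are those of the deposited table, and positions are from GENCODE M21 (93.6% of symbols found). Promoters are from RefSeq (GRCm38.p6).

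As alternatives, the pseudocount was set to 0.25 or 4 and the filter to none or 5. Others were 2 rescalings, fewer groups in the model, array weights, a replicate block, the microglia sum as a covariate, each HS library left out, the quasi-likelihood and likelihood ratio tests of edgeR 4.0.16 and DESeq2 1.42.0 on recovered reads. The comparison of the microglia-rich libraries alone, and that without them, were chosen after seeing the data. Immunostaining was not analysed here.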

Additional observations from a re-analysis of the deposited data

Results flagged for a closer look

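The difference between the time courses after HS and FT passed the test in 14 genes (interaction of time and severity in limma-trend, adjusted p under 0.05). All 14 rest on the single FT 1 week library, and none was called between HS 2 weeks and HS 1 week.

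Interferon-inducible GTPases were the largest group, with an interaction on the log2 scale (HS course minus FT course) of 5.81 for Gbp1, 4.62 for Gbp2, 5.04 for Gbp4, 6.10 for Iigp1, 5.601 for Gm12250, 4.71 for Tgtp2 and 3.69 for Tgtp1. Iigp1 had 10.8 and 8.64 normalized counts in HS 2 weeks and 9.21, 8.07 and 9.24 in HS 1 week, against 4.89, 15.7 and 6.67 in FT 2 weeks and 575 in FT 1 week. Tgtp1 and Tgtp2 are near-identical copies, and their values are uncertain for that reason. The other positive values were 4.88 for Gm15070, 4.66 for Mrap2, 3.67 for Klrk1, a receptor of natural killer cells, and 3.91 for Ly6i.

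Negative interactions were -5.77 for Susd4, a complement regulator, -5.32 for Jakmip1 and -3.44 for Hoga1. Susd4 had 69.4 and 73.4 normalized counts in HS 2 weeks and 94.7, 105 and 47.8 in HS 1 week, against 71.1, 75.9 and 61.7 in FT 2 weeks and 0.403 in FT 1 week. The FT 1 week library was the outlying value in both genes, and whether it reflects the time or the library cannot be told apart.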

How the results depend on the processing

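No gene was called between HS 2 weeks and HS 1 week under any of the 21 alternatives, and 0 of 608 list members. The number at an unadjusted p under 0.05 ran between 144 (filter at 5) and 880 (array weights), against 266, with 725 under the microglia covariate and 544 without HS 1 week replicate 3. Libraries of the same replicate number correlated at -0.25 and 0.60 in their deviations from the group mean. With 2 HS 2 weeks libraries these deviations mirror each other, so whether the numbers pair the samples cannot be told. The replicate block gave 0 calls and 441 genes at p under 0.05, and 13 interaction genes. The interaction count of 14 was 51 with a pseudocount of 4, 9 in the quasi-likelihood test, 114 in the likelihood ratio test, and 2 to 38 with an HS library left out (9 without HS 1 week replicate 1, 38 without HS 1 week replicate 3, 2 without HS 2 weeks replicate 1). The causes were not tested.

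Of 74 named genes, 63 kept the sign of their log2 difference under the 21 alternatives. Differences of turned sign for the other 11, none of them called, were as follows. Between the microglia-rich libraries alone they were -0.17 for H2-DMa, 0.22 for Ifit1, 0.057 for Rtp4, 0.37 for Gfap, 0.93 for Serpina3n and 0.63 for Tubb3, and without both of these libraries -0.25 for Aldh1l1 and 0.043 for Fgfr4. Array weights gave -0.32 for Aldh1l1 and 0.16 for Dcx, the microglia covariate gave 0.20 for Serpina3n and 0.14 for Tubb3, and rescaling to the same total gave 0.022 for Tubb3. Aldh1l1 was at -0.30 in the quasi-likelihood test, the likelihood ratio test and DESeq2, and at -0.50 under the replicate block. With each HS library left out, ranges were -0.12 to 1.99 for H2-DMb1, -1.52 to 0.16 for Mmp8, -2.16 to 0.83 for Gfap, -0.73 to 0.39 for Serpina3n, -0.84 to 0.72 for Aldh1l1, -0.42 to 0.23 for Tubb3 and -0.63 to 0.28 for Fgfr4. Those of the list sums were -1.25 to 0.20 for astrocyte, -0.84 to 1.72 for microglia and macrophage and -0.46 to 1.71 for monocyte and neutrophil, whose mean of log2 values was -1.24. The interferon median ran between -1.02 and 0.34, and was 0.080 between the microglia-rich libraries. The medians of MHC class II (0.67 to 3.005), phagocyte (0.40 to 2.29), pericyte and fibroblast (0.45 to 2.33), ribosomal protein (0.07 to 0.61), ependymal (-1.99 to -0.24) and neutrophil genes (-3.49 to -0.27) kept their sign. With 2 and 3 libraries, sums could not pass p of 0.05, and the depth of 1 read limits genes under about 1 normalized count.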

Other observations

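Some lists not described above held members whose HS libraries did not overlap between the times, with no p under 0.05 in limma-trend. Genes of cholesterol synthesis and efflux had 3 of 18 below all HS 1 week libraries (6.72% of all genes were below), Cyp51, Idi1 and Lss, enzymes of the sterol pathway, and 15 of 18 had a negative difference, with a median of -0.28. B cell genes had 3 of 9 below, Cd79a, Ms4a1 and Vpreb1, with a median of -0.15, and 4 of 9 were above 0. These genes were near the floor, and 4 of 9 had no read in some HS library. The sum of all 9 was 16.7 and 27.9 normalized counts in HS 2 weeks, against 19.4, 9.80 and 20.4 in HS 1 week. Immediate early genes had a median of 0.29, but -0.38 in both edgeR tests, -0.37 in DESeq2 and -1.32 between the microglia-rich libraries alone.

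Markers of lysosomes were above 0 in 15 of 18 genes, with a median of 0.26 and no gene at p under 0.05, and those of mast cells in 8 of 11, with a median of 0.52. Both medians turned sign with the libraries used. The lysosome median was -0.47 without HS 2 weeks replicate 1. That of mast cells was -0.33 without HS 2 weeks replicate 2 and -0.90 between the microglia-rich libraries alone. Glucocorticoid and metallothionein genes had a median of -0.46, with 6 of 10 below 0. Across genes, the log2 differences of the HS and FT time courses had a Pearson correlation of -0.167, a description over 16388 genes that are not independent replicates and share no libraries between the courses.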
